A study of Mus musculus with 4 samples.

Results

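Glycolysis turns glucose into pyruvate in the cytosol, and its middle step holds the 2 triose phosphates, from which methylglyoxal (MG) forms as a toxic by-product. Enzymes above that step supply the triose phosphates, triose phosphate isomerase and glyceraldehyde-3-phosphate dehydrogenase interconvert and remove them, and the last enzymes make pyruvate and lactate. In the embryonic cortex, dividing progenitors are known to rely more on glycolysis and lactate production than the neurons they give rise to. The study took up the breakdown of MG in the knock-in cortex, and the mRNAs of the enzymes that lead to MG and past it were examined here. The genes are Hk1, Hk2, Gpi1, Pfkp, Aldoa, Aldoc, Tpi1, Gapdh, Pkm and Ldha. They were taken by name from the deposited table, and these 10 names matched 11 of its 26433 genes, because 2 entries carry the name Aldoa.

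Bulk RNA sequencing was done on telencephalic tissue of E15 mouse embryos, in 2 libraries of cKIf/+ mice (columns KI2 and KI3) and 2 of WT mice (columns WT1 and WT3). The cKIf/+ embryos (Serpina3/+;Nestin-Cre) carry human SERPINA3 behind a CAG promoter and a floxed stop cassette in Rosa26, and Nestin-Cre opens it in neural progenitors and their progeny. WT embryos were littermate controls, and the alleles they carry besides are not given in the sources used here. Both groups are labelled as C57BL/6 and 15 days of embryonic age, while the founders of the knock-in line were bred with B6D2F2 mice. Nothing states how many embryos went into a library, so the p-values below measure only the spread between these libraries. The genes of the table received between 17423512 and 18119444 reads per library, and 3 reads, taken as the floor of detection, equal 0.166 to 0.172 CPM (reads of a gene per 1000000 reads of the library), for counting error only. The cortical markers Emx1, Emx2, Neurod2 and Neurod6 were present in every library, the lowest being Emx2 with 70.9 CPM in WT1. Xist had 13223 and 11882 reads in the cKIf/+ libraries and 5 in each WT library, and Kdm5d of chromosome Y had 0 and 0 against 951 and 918, so genotype and embryo sex cannot be told apart in any comparison below. The choroid plexus gene Ttr had 6.58 CPM in KI2 and 52.8 CPM in KI3, against 0 and 0.230 CPM in WT. The list of 4 choroid plexus genes, of which 3 passed the filter on low counts, summed to 8.91 and 57.4 CPM against 1.02 and 1.89 CPM. Kl, the gene of this list that did not pass, had 2 reads or fewer in every library. The 4 meningeal genes, of which 3 passed, summed to 13.5 and 10.7 CPM against 2.89 and 5.45 CPM, and Lum had 6 reads or fewer in every library. edgeR called 0 genes of both lists, with 2 and 3 at an unadjusted p under 0.05. The part of either tissue in the values below was not tested. Lists for radial glia, proliferation, intermediate progenitors, ventral telencephalon, endothelium and microglia also held 0 called genes, with 0, 0, 1, 2, 0 and 1 at an unadjusted p under 0.05. The log2 fold changes of the 7 neuronal genes listed ran from -0.28 to -0.013, with a median of -0.13, and both cKIf/+ libraries were lower for 2 of them. Those of the 8 erythroid genes had a median of -0.24, with 4 lower in both and 1 higher. Both lists held 0 called genes, with 0 and 3 at an unadjusted p under 0.05, and their part in the values below was not tested either. Among all genes tested by edgeR, 0.120% were called and 4.60% had an unadjusted p under 0.05. Those called include all 5 sex-linked genes listed, Xist, Kdm5d, Eif2s3y, Ddx3y and Uty. Both cKIf/+ libraries were higher for 17.3% of all genes tested and lower for 16.9%. Positions are those of the table, which follow GRCm38.

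No glycolytic enzyme of the set passed the test between cKIf/+ and WT cortices. All 10 genes, and the second Aldoa entry, passed the expression filter, and 0 of the 10 were called at an adjusted p under 0.05 by edgeR's quasi-likelihood test, where 0.120% of the 15786 genes tested were called. At an unadjusted p under 0.05 the number was also 0, against 4.60% of all genes tested, and DESeq2 and edgeR's likelihood ratio test called 0 of the 10 as well. The log2 fold changes of cKIf/+ over WT lay between -0.074 for Gapdh and 0.17 for Ldha, with a median of 0.069 beside 0.0043 for all genes tested. Of the 10 genes, 8 had a fold change above 0 and 2 below, while 51.2% of all genes tested were above 0. The 95% intervals of all 10 included 0, and they reached from a 0.766-fold level, the lower bound for Pfkp, to a 1.27-fold level, the upper bound for Ldha. In bulk tissue, a change in the number of cells of a type and a change in the RNA of each cell cannot be told apart.

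**Figure D1:**
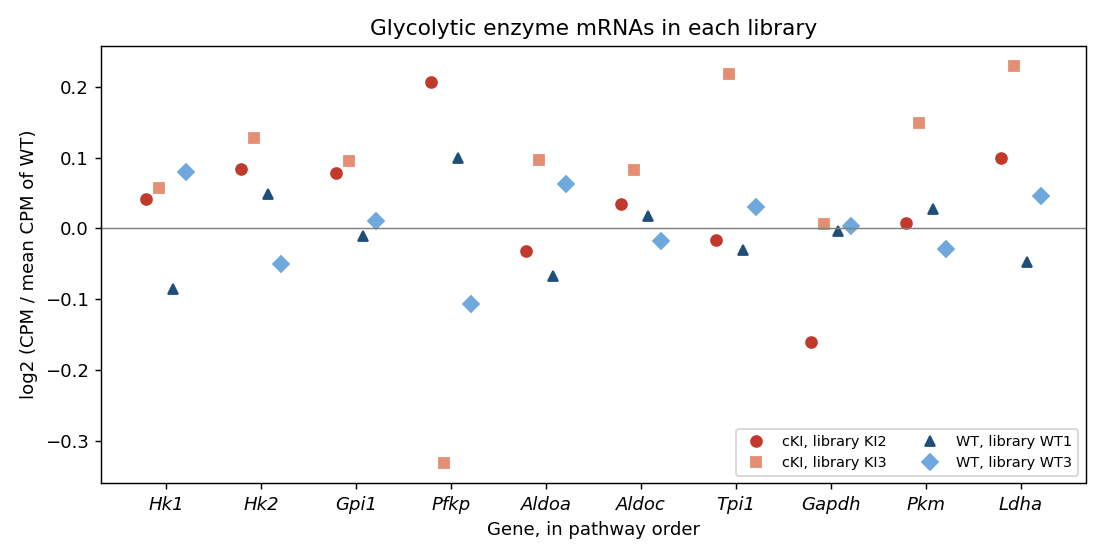
CPM of each glycolytic gene in each of the 4 libraries, as the log2 ratio to the mean of the 2 WT libraries, with genes in pathway order and cKIf/+ libraries in red shades and WT libraries in blue shades. Both red points lie above both blue points for Hk2, Gpi1, Aldoc and Ldha, and the points of Pfkp are spread the most, from 60.2 CPM in KI3 to 87.3 CPM in KI2.

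Both cKIf/+ libraries were above both WT libraries for 4 of the 10 genes (40%), namely Hk2, Gpi1, Aldoc and Ldha, where 17.3% of all genes tested had that order. Both were below for 0 of the 10, against 16.9% of all genes tested. For the other 6 genes the groups overlapped. For those same 6, Hk1, Pfkp, Aldoa, Tpi1, Gapdh and Pkm, the gap between libraries of one group was larger than the gap between the group means on the log2 scale, as the plot of each gene by library shows.

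The hexokinases trap glucose in the cell as glucose-6-phosphate and set off the pathway. Hk1 (ENSMUSG00000037012, chromosome 10 of GRCm38 from 62268855 to 62379908, minus strand) encodes the hexokinase typical of brain. It had 119 and 120.3 CPM in the cKIf/+ libraries and 109 and 122.2 CPM in the WT libraries, so the WT libraries enclosed both cKIf/+ values. At a log2 fold change of 0.050 ± 0.083 (SE), it did not pass (adjusted p = 0.993). Hk2 (chromosome 6, 82725025 to 82774454) encodes the hexokinase of growing and hypoxic tissues. It had 27.1 and 28.0 CPM against 26.5 and 24.7 CPM, with no overlap, but the 95% interval of its log2 fold change of 0.11, from -0.13 to 0.34, included 0 (adjusted p = 0.985). Per kilobase of transcript, Hk1 had 28.0 CPM ± 0.209 (SD, n = 2) in cKIf/+ mice and Hk2 had 4.997 CPM ± 0.108. Hk2 thus made up 15.03% and 15.3% of the sum of both in KI2 and KI3, and 15.9% and 13.6% in WT1 and WT3, and the balance of the pair overlapped between groups. The mean share of Hk2 was 24.4% in place of 14.9% with all annotated exons joined.

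Gpi1, glucose-6-phosphate isomerase, turns glucose-6-phosphate into fructose-6-phosphate. It lies on chromosome 7 from 34201330 to 34230336 and had 197.9 and 200.3 CPM in cKIf/+ mice and 186.2 and 188.9 CPM in WT mice. The larger of its gaps between libraries of one group was 0.020 on the log2 scale. In the other genes of the set the larger gap was wider. The cKIf/+ libraries were both higher, by 0.086 ± 0.074 (SE) in log2 units, which did not pass the test (adjusted p = 0.976). A processed copy of Gpi1, Gm1840 on chromosome 8 from 5639580 to 5641011, received 198 reads in KI2 and 6, 6 and 5 in KI3, WT1 and WT3. It shares 59.1% of its words of 31 bases with Gpi1 transcripts. These reads were nearly all in 1 cKIf/+ library, and with the copy added, Gpi1 had a log2 fold change of 0.12 (adjusted p = 0.966).

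Phosphofructokinase commits the sugar to glycolysis, and Pfkp encodes its platelet type. Pfkp (chromosome 13, 6579768 to 6648777) was the least even gene of the set. It had 87.3 CPM in KI2 and 60.2 CPM in KI3, with counting intervals (95%, exact Poisson) of 83.0 to 91.8 and 56.7 to 63.9 CPM, so the 2 cKIf/+ libraries differed by more than counting error. The WT libraries, at 81.1 and 70.4 CPM, lay between them. The log2 fold change was -0.038 with the largest standard error of the set, 0.15, and it turned to 0.20 without KI3 and to 0.069 without WT1. The 3′ end of Pfkp lies over that of Pitrm1 on the other strand, from 6579768 to 6580515, with 748 exon bases shared, and 17.1% of the 50-base words of its longest transcript also occur in Pitrm1. Pitrm1 had 1145 and 1283 reads in KI2 and KI3 and 1265 and 1231 in WT1 and WT3, and whether strand was used in the counting is not given in the sources used here. Of the phosphofructokinase family, Pfkm, the muscle type, had 56.4 CPM per kb ± 0.933 (SD, n = 2) and Pfkl, the liver type, 42.4 CPM per kb ± 2.34 in cKIf/+ mice, while Pfkp had 17.8 ± 4.63. Pfkp made up 17.7% and 12.7% of the family in KI2 and KI3 and 16.8% and 14.8% in WT1 and WT3. With all annotated exons joined, its mean share over the 4 libraries was 7.20% in place of 15.5%.

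Aldolase splits fructose-1,6-bisphosphate into the triose phosphates from which MG forms. Aldoa encodes the muscle type, which most growing cells use, and Aldoc the brain type. The main Aldoa entry (ENSMUSG00000030695) lies on chromosome 7 from 126795234 to 126808905 and had 161.9 and 177 CPM in cKIf/+ mice and 158 and 172.9 CPM in WT mice. The groups overlapped, at a log2 fold change of 0.035 ± 0.085 (SE, adjusted p = 0.994). The second Aldoa entry (ENSMUSG00000114515, 126800790 to 126809108) reaches into the main one on the same strand, though the 2 share 0 exon bases in GENCODE M21. It had 25 and 24 reads against 16 and 15, and its log2 fold change of 0.63 had a 95% interval of -0.20 to 1.46 (adjusted p = 0.969). Aldoc (chromosome 11, 78322968 to 78327781) had 319 and 329.9 CPM against 315.4 and 307.8 CPM. All 4 of its values lay close together, and the log2 fold change was 0.058 ± 0.073 (SE, adjusted p = 0.992).

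Per length of the longest coding transcript the levels of the 2 aldolases lay close together. Aldoc had 116.5 CPM per kb ± 2.76 (SD, n = 2) in cKIf/+ mice and Aldoa 109.4 ± 6.88, and in WT mice they had 111.8 ± 1.93 and 106.8 ± 6.81. Aldoc was 52.3% and 50.9% of the pair in KI2 and KI3, and 52.6% and 49.7% in WT1 and WT3. This balance depends on the length used, since with all annotated exons joined Aldoc had 97.5 CPM per kb, Aldoa 57.5, and the mean share of Aldoc was 62.9% in place of 51.4%. Reads of the 2 genes can be told apart, since their coding sequences were 75.9% identical and shared 0 words of 31 bases. The stretch of 90 coding bases in which they are most alike, taken from the GENCODE M21 transcripts and shown with the bases that differ in capitals, still holds 11 differences. It runs from coding base 640 to 729 in Aldoa and from 478 to 567 in Aldoc.
Aldoa: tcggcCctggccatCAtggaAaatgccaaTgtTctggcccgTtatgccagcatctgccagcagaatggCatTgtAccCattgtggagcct
Aldoc: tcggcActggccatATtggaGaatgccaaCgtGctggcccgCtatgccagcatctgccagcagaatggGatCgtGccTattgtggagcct

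Tpi1, triose phosphate isomerase, interconverts the triose phosphates. It lies on chromosome 6 from 124810586 to 124814296 and had 302.3 and 355.3 CPM in the cKIf/+ libraries and 299.1 and 312 CPM in the WT libraries. KI3 alone was above the other 3 libraries, with KI2 inside the WT range. Its log2 fold change of 0.11 ± 0.091 (SE, adjusted p = 0.976) became -0.020 without KI3.

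Gapdh removes glyceraldehyde-3-phosphate and is widely used as a loading reference. It lies on the same chromosome from 125161715 to 125166467 and had 175 and 196.4 CPM in cKIf/+ mice and 195.1 and 195.9 CPM in WT mice. Only KI2 stood apart, below the others, and the fold change on the log2 scale was -0.074 ± 0.083 (SE, adjusted p = 0.988). Gapdh has many processed copies in the mouse genome, and 82.5% of the 50-base words of its longest coding transcript also occur in transcripts of other genes in GENCODE M21, 86 of which are pseudogenes of the deposited table. Over words of 100 bases the share was 78.0%. The copy with the most reads is Gm7336 on chromosome 7 from 51746647 to 51747878, and all 999 coding bases of Gapdh occur in it with 0 differences. The first 90 coding bases, which stand at bases 51 to 140 of the Gm7336 transcript, show what a read from either would look like.
Gapdh and Gm7336: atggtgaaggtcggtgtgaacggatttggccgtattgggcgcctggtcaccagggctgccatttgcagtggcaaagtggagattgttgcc

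Reads from these bases cannot be given to one gene or the other by sequence, so the count of Gapdh, and its level per length below, are uncertain. Gm7336 had 1640 and 1927 reads in the cKIf/+ libraries and 1612 and 1750 in WT, and Gm5559, a copy on chromosome 5, had 1615 and 1949 against 1528 and 1665. The 29 copies matched to Gapdh held 3390 and 4080 reads in cKIf/+ mice and 3312 and 3546 in WT mice, which is 106.2% of the reads counted on Gapdh itself. With these added, the log2 fold change of Gapdh turned from -0.074 to 0.0054 (adjusted p = 0.996). No other gene of the set had matched copies with more than 1.57% of its own reads, the share that Gm1840 reached for Gpi1. Only copies that share at least 50% of their words of 31 bases with a gene were matched. Ldha had 0 matched copies, though 16.7% of its 50-base words occur in other genes, 4 of them pseudogenes of the deposited table. Reads of such unmatched copies were not summed.

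**Figure D2:**
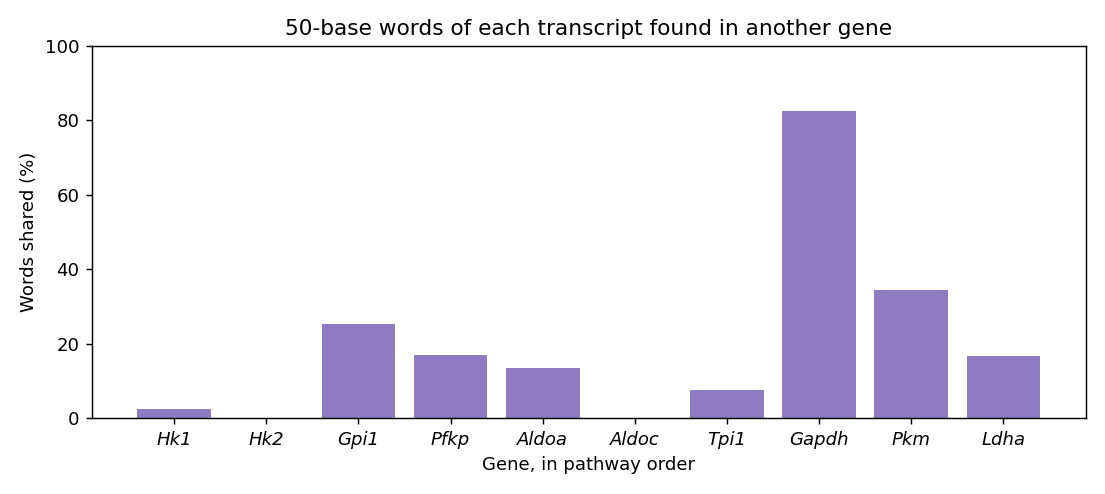
Share of the 50-base words of each gene's longest coding transcript that also occur, on either strand, in a transcript of another gene of GENCODE M21, as bars from 0 to 100%. Gapdh reached 82.5% and Pkm 34.4%, while Hk2 and Aldoc had 0%.

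Pkm encodes pyruvate kinase of muscle and embryonic type, the last step to pyruvate. It lies on chromosome 9 from 59656368 to 59679375 and was the most abundant of the set, with 1243 and 1370 CPM in cKIf/+ mice and 1260 and 1211 CPM in WT mice. KI2 lay inside the range of the WT libraries, and Pkm had a log2 fold change of 0.080 ± 0.074 (SE, adjusted p = 0.979). The transcript AC160637.1 shares 767 exon bases with Pkm on the same strand and had 662 and 715 reads against 784 and 615, so reads of that part are uncertain. Pkm held 40.6%, 41.5%, 41.8% and 40.2% of all reads of the 10 genes in KI2, KI3, WT1 and WT3. The gene yields the M1 and M2 splice forms, of which M2 is known from dividing cells, and counts per gene do not separate them.

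Ldha encodes the A subunit of lactate dehydrogenase, which turns pyruvate into lactate. It lies on chromosome 7 from 46841475 to 46855627 and had 426.3 and 466.3 CPM in the cKIf/+ libraries and 385 and 410.6 CPM in the WT libraries. This was the gene with the highest fold change of the set, and its groups did not overlap. Its mean was 446.3 CPM ± 28.3 (SD, n = 2) against 397.8 CPM ± 18.05 (SD, n = 2), a log2 fold change of 0.17 with a 95% interval of -0.013 to 0.35. The unadjusted p of edgeR's quasi-likelihood test was 0.0661 and the adjusted p 0.969, so the difference did not pass. Without each library in turn, the log2 fold change of Ldha lay between 0.096 and 0.22.

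Ldhb, the B subunit, which is known to favour the use of lactate, lay the other way, with 200.9 and 209.2 CPM in cKIf/+ mice and 225.2 and 226.2 CPM in WT mice. It also missed the threshold, at a log2 fold change of -0.14 ± 0.075 (SE, adjusted p = 0.969). Per length, Ldha made up 60.4% and 61.6% of the pair in KI2 and KI3 and 55.1% and 56.6% in WT1 and WT3. These shares did not overlap between groups, while those of the other 5 paralog families examined did. Of all genes tested, for comparison, 17.3% had both cKIf/+ libraries higher and 16.9% had both lower. The difference of 5.12 percentage points had a two-sided exact permutation p of 0.333, which is the smallest that 2 libraries against 2 can give. With each library left out in turn it lay between 4.38 and 5.85 percentage points. Sex, genotype and the higher Ttr of the cKIf/+ libraries all follow the same split of the 4 libraries.

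**Figure D3:**
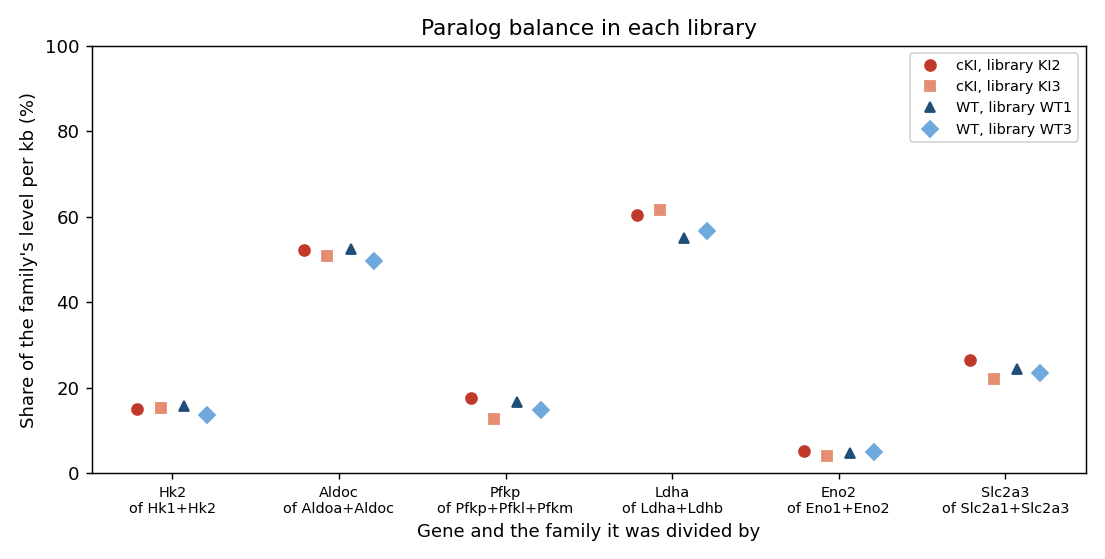
Share of one gene in the summed level per kb of its family, in percent, for hexokinase, aldolase, phosphofructokinase, lactate dehydrogenase, enolase and the glucose transporters, with 1 point per library. The Ldha share was 60.4% and 61.6% in the cKIf/+ libraries and 55.1% and 56.6% in the WT libraries, and the points of the other 5 families overlapped between groups.

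Several genes of glycolysis are known targets of hypoxia-inducible factors, which bind the core ACGTG or GCGTG. In RefSeq promoters (GRCm38.p6), searched on both strands in the 250 bases before each annotated start, 8 of the 10 genes (80%) had at least 1 match in 1 of their promoters, as did 41.5% of 27025 genes. Counted by promoter, 11 of 16 (68.8%) had a match, against 38.6% of 32851. Gpi1 and Tpi1 had none in this window. A match is a description of the letters and does not show that a factor binds. The genes compared with were not matched to the set for base composition of the promoter or for being expressed in this tissue. Ldha had 5 matches on the 2 strands before the more upstream of its 2 RefSeq starts. CACGTG reads as the core on either strand, so it counts as 2 matches at 1 place. Pfkp, with a log2 fold change of -0.038, had 3 matches, each at its own place. A link between matches and fold changes was not tested. The Ldha stretch, chr7:46845554-46845803 on the plus strand, is shown with the matches in capitals.
Ldha: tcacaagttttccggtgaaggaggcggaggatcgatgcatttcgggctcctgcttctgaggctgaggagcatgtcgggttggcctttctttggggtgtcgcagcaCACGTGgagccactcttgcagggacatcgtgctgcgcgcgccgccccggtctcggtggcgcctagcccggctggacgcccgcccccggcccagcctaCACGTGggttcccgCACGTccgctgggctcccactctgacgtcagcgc

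The mRNAs of the hypoxia response were tested from a list of 20 genes, and 0 of the 19 that passed the filter were called, with 0 at an unadjusted p under 0.05. Their log2 fold changes had a median of -0.058, and both cKIf/+ libraries were higher for 2 and lower for 6 of the 19. Among all genes tested, both were higher for 17.3% and lower for 16.9%. The 2 with both higher were Ddit4 and Car12, at log2 fold changes of 0.1727 and 0.2639 (adjusted p = 0.9687 and 0.974). Ddit4 had 209.2 and 238.8 CPM in cKIf/+ mice and 202.4 and 195.1 CPM in WT mice. Hif1a, the oxygen-regulated subunit of the factor, was among the 6 with both lower. It had 74.8 and 74.0 CPM in cKIf/+ mice and 77.1 and 90.7 CPM in WT mice. These counts are of its mRNA and do not give the level of its protein. Vegfa, which draws in blood vessels, had 65.2 and 71.3 CPM against 73.8 and 61.4 CPM, and its groups overlapped. Pdk1, which keeps pyruvate out of mitochondria, had 29.2 and 27.5 CPM against 32.0 and 30.2 CPM (adjusted p = 0.969).

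Across the set the levels spanned a wide range. Per kilobase of the longest coding transcript, Pkm had a mean of 522.6 CPM over the 4 libraries, Ldha 232.5, Tpi1 197.4, Gapdh 134.2, Aldoc 114.1, Aldoa 108.1, Gpi1 67.0, Hk1 27.5, Pfkp 18.03 and Hk2 4.82. In this order the 4 values of neighbouring genes overlapped between Ldha and Tpi1 and between Aldoc and Aldoa, and were apart for the other neighbours. Pkm ranked 84th and Hk2 9182nd among 15765 genes tested with a length, so the pathway held both one of the most abundant mRNAs of this tissue and one of middling level. The order depends on the length used. With all annotated exons joined, Gapdh lay below both aldolases, at 46.1 CPM per kb against 97.5 for Aldoc and 57.5 for Aldoa, and the mean Ldha share of its pair was 48.1% in place of 58.4%.

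**Figure D4:**
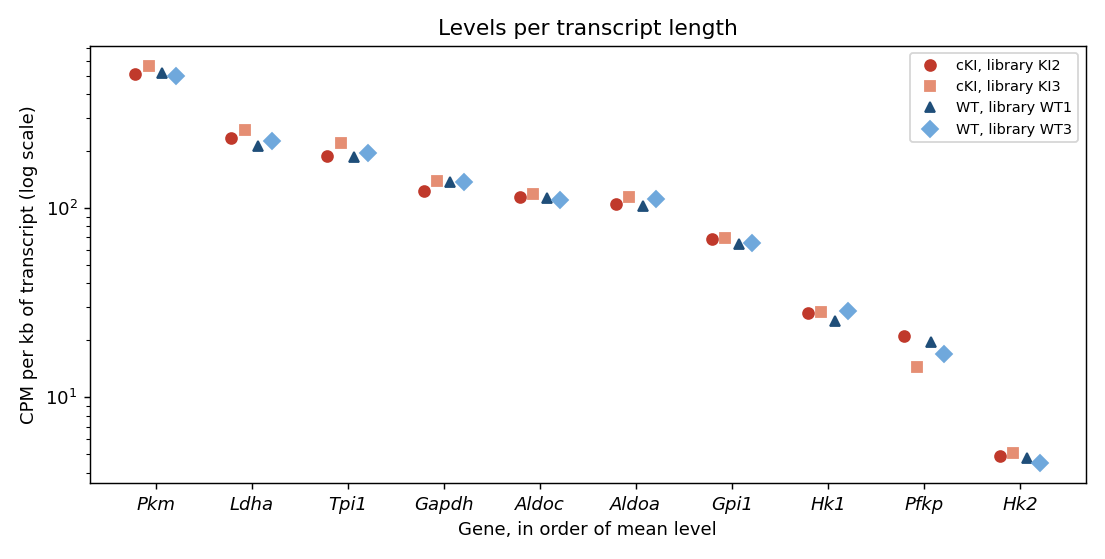
Level of each gene in each library, in CPM per kb of its longest coding transcript on a log scale, in order of the mean. Pkm stood highest at 498 to 563.4 CPM per kb and Hk2 lowest at 4.49 to 5.07, and groups lay close together beside the distance between genes.

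Library KI3 carried more glycolytic mRNA than the others. The 10 genes took 0.331% of its reads, against 0.304% in KI2, 0.302% in WT1 and 0.302% in WT3. KI3 was above KI2 for 9 of the 10 genes, all but Pfkp, where 49.7% of all genes tested had that order. Among 13 other glycolytic genes tested, 8 had it. Without KI3, the median log2 fold change of the set was 0.034 in place of 0.069. In the same library the 7 neuronal genes listed summed to 4484 CPM, against 4857, 4919 and 5063 in the other libraries, and the 8 erythroid genes to 383.7 CPM against 508.9, 508.2 and 538.1. The radial glia list summed to 2380 CPM in KI3, against 2239 in KI2, 2221 in WT1 and 2369 in WT3. The proliferation list summed to 1188 CPM in KI3, against 1114, 1182 and 1123. The choroid plexus sum of KI3, 57.4 CPM, was the highest of the 4 libraries. The part of these in the KI3 values was not tested.

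The rest of the pathway was read the same way. Of 18 other glycolytic genes listed, 13 passed the filter and 0 were called in either direction, with 0 at an unadjusted p under 0.05 and a median log2 fold change of 0.0066. Eno1, the enolase of most tissues, had 537.2 CPM in KI2 and 708.4 CPM in KI3, against 543.7 and 554.3 CPM in WT, so that 1 library was high. The fold change on the log2 scale was 0.18 ± 0.12 (SE, adjusted p = 0.969), and 72.2% of its 50-base words occur in other genes. Pgk1, phosphoglycerate kinase, had 291.4 and 326.1 CPM against 299.8 and 314.8 CPM, and Pgam1, phosphoglycerate mutase, 195.5 and 232.3 CPM against 202.8 and 197.6 CPM. Both overlapped between groups. Hkdc1, Pklr and Ldhc had 3 reads or fewer in every library.

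**Figure D5:**
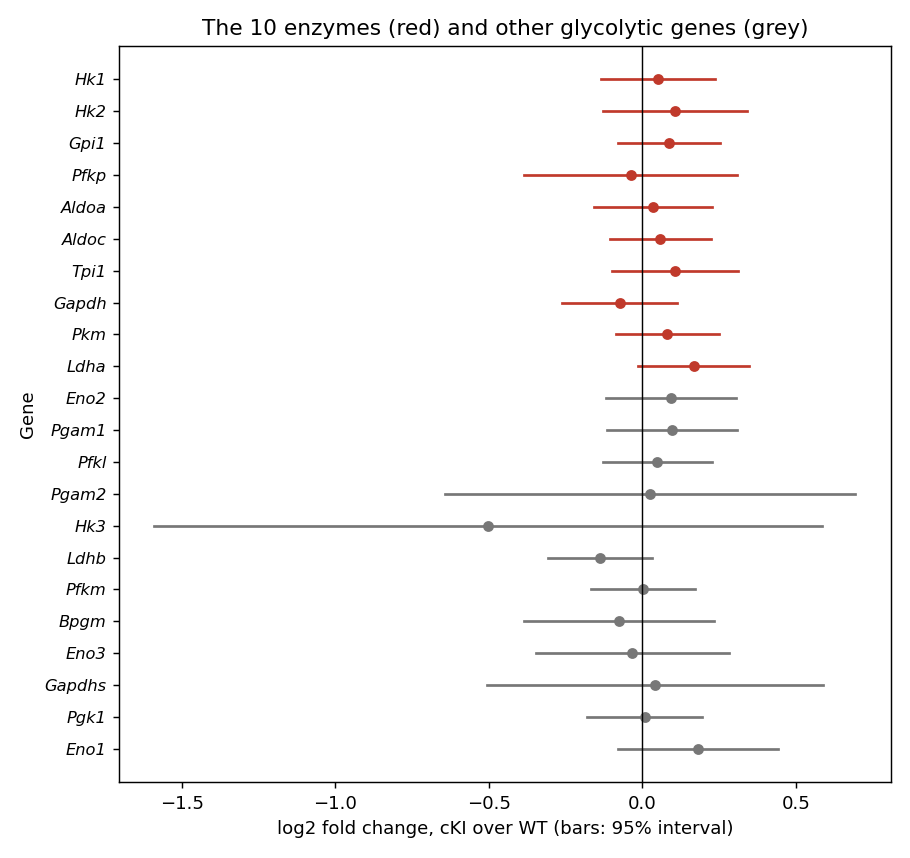
Log2 fold change of cKIf/+ over WT with its 95% interval, in red for the 10 genes and in grey for other glycolytic genes that passed the filter. Every interval plotted includes 0, and those of Hk3, Gapdhs and Pgam2, which have few reads, are the widest of those plotted.

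Genes that feed or drain the pathway did not pass the test either. Of 7 glucose and lactate transport genes, 6 regulators of flux, 12 genes of pyruvate entry and 11 of the branches, 7, 5, 11 and 11 passed the filter, and 0 were called in each list, with 0 at an unadjusted p under 0.05. Slc2a1, the main glucose transporter of the blood-brain barrier, had 67.6 and 76.3 CPM in cKIf/+ mice and 73.6 and 72.9 CPM in WT mice. Slc2a3, the neuronal glucose transporter, had 29.6 and 26.1 CPM against 28.9 and 27.3 CPM. Tkt, transketolase of the pentose phosphate pathway, had 430.7 and 453.1 CPM against 435.1 and 418.9 CPM. The groups overlapped for these 3 genes. In the transport, flux, pyruvate entry and branch lists, both cKIf/+ libraries were higher for 0, 1, 4 and 0 genes and lower for 1, 1, 5 and 4 genes, beside 17.3% and 16.9% of all genes tested. The pentose phosphate enzyme Pgd, which had both lower, had 134.4 and 135.1 CPM against 140.6 and 148.9 CPM (adjusted p = 0.969). G6pdx, the first enzyme of that pathway, had 73.6 and 77.9 CPM against 79.8 and 82.8 CPM (adjusted p = 0.971). Dlat, a subunit of pyruvate dehydrogenase, had both higher, with 52.5 and 50.7 CPM against 46.9 and 46.3 CPM (adjusted p = 0.969).

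Downstream of MG, the clearance list of 5 genes held 1 called gene, where 0.120% of all genes tested were called. The study had itself picked up Glo1 from its bulk RNA sequencing, so the call below is not independent of that choice. Glo1, glyoxalase 1, had 110.3 and 117.5 CPM in cKIf/+ mice and 70.1 and 71.9 CPM in WT mice (adjusted p = 0.0106). Its log2 fold change of 0.68 had a 95% interval of 0.50 to 0.86, which lies above the highest bound of the 10 enzymes, 0.35. Hagh, the second enzyme of the glyoxalase system, had 16.1 and 15.7 CPM against 15.6 and 17.2 CPM and overlapped between groups. Park7, Akr1b3 and Akr1a1 also overlapped and were not called, with log2 fold changes of 0.135, 0.0915 and 0.0565.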

How the data were processed

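Total RNA of 4 libraries was sequenced on a HiSeq instrument, and the authors deposited a table of raw counts, 1 row a gene. The submitters' processing notes name Bowtie2 2.2.3, TopHat2 2.0.12, HTSeq 0.6.0 and the build mm9, yet 24485 of 26433 genes have their GENCODE M21 (GRCm38) position in the table. Columns were assigned to a genotype and not to single samples. Its columns with the authors' mean count, fold changes and p-values were not used. Here, edgeR 4.0.16 in R 4.3.3 filtered the counts (filterByExpr), scaled them by TMM and tested the 15786 genes left by the quasi-likelihood method, calling genes at a p under 0.05 after Benjamini-Hochberg adjustment over all of them. The biological coefficient of variation was 8.72%, and the test was checked on simulated data. Libraries of a group were not copies (chi-square per degree of freedom 5.63 and 7.49). CPM are the counts scaled by TMM, and lengths come from GENCODE M21. A copy was given to the gene with which it shares most words of 31 bases, at least 50%. Members and lists were chosen with earlier results of these data known. The rule for named genes takes all 10 members, genes of the lists and sex-linked genes. Genes that overlap a member or copy it, and Gm1840, were named after their values were seen. Alternatives were DESeq2 1.42.0, a likelihood ratio test, other scalings and filters, removal of chromosomes X and Y, reads of copies added to their parents and each library left out. Summing both Aldoa entries and joining all exons were chosen after seeing the data.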

Additional observations from a re-analysis of the deposited data

How the results depend on the processing

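None of the 10 genes was called under any of the 14 alternatives, and the lowest adjusted p among them was 0.544, for Ldha without 1 library. The number of all genes called was 19, and it was 54 by the likelihood ratio test, 11 once chromosomes X and Y were removed, 6 where each library had to hold 10 counts or more, and between 46 and 71 with each library left out in turn (52 without KI2, 46 without KI3, 49 without WT1 and 71 without WT3). The filter and the removal of X and Y test fewer genes. All 5 sex-linked genes listed were among the 19 called, and both of these alternatives take them out. Each of the 5 had 5 reads or fewer in both libraries of 1 group. For the other changes the cause was not tested. In the fits that leave out 1 library, the lone library is assumed to vary like the other group. The median log2 fold change of the set was 0.069, and with a library left out it lay between 0.034 and 0.086. Of 131 values of single genes, 7 changed sign. Gapdh went to 0.0054 with the reads of its copies added. With a library left out, Pfkp ranged from -0.34 to 0.20, Aldoa from -0.035 to 0.10, Tpi1 from -0.020 to 0.21 and Hk1 from -0.029 to 0.14. The difference in the Ldha share, 5.12 percentage points, was 5.26 with all exons joined and 5.10 with copies added. The last value could hardly differ, since Ldha had 0 matched copies and the copy of Ldhb had 3 reads or fewer in every library. Reads of the 4 pseudogenes that share 50-base words with Ldha were not added, so their part in this share was not tested. No paired analysis was possible because no 2 replicate numbers occur in both groups. With 2 libraries a group, the 95% intervals of the 10 genes still held levels in cKIf/+ mice as far as 0.766-fold (Pfkp) and 1.27-fold (Ldha) of WT.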
